A study of Mus musculus with 4 samples.

Results

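The genes described here are 7 transcriptional targets of p53 (Cdkn1a, Pmaip1, Bbc3, Bax, Mdm2, Ccng1 and Trp53inp1) and the 3 members of the Gadd45 family (Gadd45a, Gadd45b and Gadd45g), measured in mouse brain after an experimental stroke. They were taken by gene symbol, older symbols included, and make up 10 of the 27670 gene names on the arrays, with 14 probes between them. All 14 probes were well above background in both dyes on every array, so all 10 genes are among the 19117 that were tested. The ischemic groups came from male C57BL/6J mice whose middle cerebral artery was closed for good by a nylon filament (PMCAO), with brains taken at 6 h or at 24 h. Their controls were sham-operated brains of the same strain and sex at 6 h and at 24 h, where the neck vessel was exposed and the wound closed without a filament. Mice of both arms were 8 to 12 weeks old, no genetic change is labelled, and all had saline put into the cerebral ventricle, so every ratio below sets occlusion plus saline against sham surgery plus saline. The study counts 3 mice per group, but how their RNA was combined for an array is not stated. According to the design text the arrays carried the contralateral hemisphere, while the sample labels say brain.

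p53 is a transcription factor that cells stabilise after DNA damage, oxygen shortage and other stresses, and its targets split into genes that stop the cell cycle, genes that open the mitochondrial route to apoptosis, and genes that feed back on p53 itself. The Gadd45 proteins are small stress sensors that bind p21, PCNA and the kinase MEKK4. Gadd45a is the classical p53 target among them, while Gadd45b and Gadd45g are known mainly as early response genes of cytokine, NF-kB and neuronal activity signalling. Several of these genes are well known to respond to ischemia in rodent brain.

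Each of the 4 arrays carried PMCAO RNA in one dye and sham RNA in the other, with PMCAO in Cy5 on sample 1 and in Cy3 on sample 2 of each time. The labels do not say that sample 1 and sample 2 hold separate RNA, so the p-values below measure only how far these arrays differ, and that spread may be technical. Of all probes, 65.5% to 73.1% were above background for PMCAO RNA and 66.7% to 73.0% for sham RNA. The 8 neuron markers averaged 14.06 to 14.25 in PMCAO brains and 14.15 to 14.29 in sham brains on the log2 intensity scale. Probe positions below are those of the files' build, mm7, for which no exon annotation was used here. Because whole tissue was measured, fewer cells of a type and less RNA per cell cannot be told apart in any value below.

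At 6 h, 5 of the 10 genes were higher in PMCAO brains and 0 were lower, against 0.816% of all genes tested that were called higher and 0.0366% called lower. These were Cdkn1a, Pmaip1, Trp53inp1, Gadd45b and Gadd45g, and the median log2 ratio of the 10 was 0.75, beside -0.01 over all genes. At 24 h, 7 of the 10 were higher and 0 lower, against 7.86% of all genes called higher and 4.53% called lower. The same 5 were joined by Bbc3 and Gadd45a, and the median was 0.72, beside 0.00 over all genes. Bax, Mdm2 and the brighter probe of Ccng1 passed at neither time. All calls are from limma with Benjamini-Hochberg adjustment at 0.05 over 19117 genes. The calls at both times were lost when the arrays were centred on their median in place of loess, where 0 of the 10 passed. There Cdkn1a still had log2 ratios of 1.89 and 2.37, with an SE of 0.55 in place of 0.08, while Bbc3 at 24 h fell from 0.43 to 0.28.

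**Figure D1:**
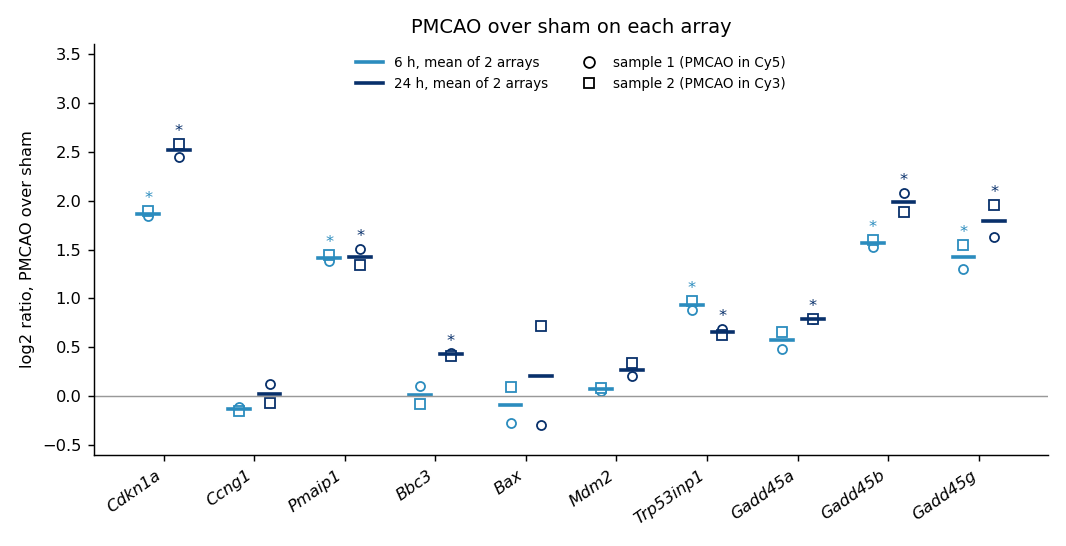
Log2 ratio of PMCAO over sham (vertical axis) for each gene, with 1 point per array and a bar at the mean of the 2 arrays of a time; stars mark an adjusted p under 0.05. Cdkn1a lies at 1.84 and 1.89 at 6 h and at 2.44 and 2.58 at 24 h, while the 24 h points of Bax lie on both sides of 0, at -0.30 and 0.72.

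Cdkn1a, which encodes the cyclin-dependent kinase inhibitor p21 and is the best known p53 target, had the largest ratio of the 10 genes at both times. Its probe (mm7 chr17:27293819-27293878, plus strand) was spotted 10 times on each array. The PMCAO level was 12.15 and 12.20 at 6 h, against 10.31 and 10.31 in sham brains, on the normalised log2 intensity scale. At 24 h it was 12.13 and 12.14 in PMCAO brains, against 9.68 and 9.56 in sham brains. No PMCAO value came near a sham value at either time, and the PMCAO level was nearly the same at 6 h and 24 h. The log2 ratio was 1.87 ± 0.08 at 6 h (SE, n = 2 arrays, 3.64-fold, adjusted p = 0.00378 in limma), which placed Cdkn1a at rank 19 of all genes. It was 2.51 ± 0.08 at 24 h (SE, n = 2 arrays, 5.71-fold, adjusted p = 0.000197 in limma), at rank 64. Between the repeated spots of an array the SD was 0.0145 to 0.0339, which is technical spread only.

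One start of Cdkn1a in RefSeq lies upstream of the other, and the 250 bases before it are shown because they hold a pair of 10-base p53 decamers, marked in capitals (GRCm38.p6 chr17:29090729-29090978, plus strand, RefSeq).
Cdkn1a upstream start: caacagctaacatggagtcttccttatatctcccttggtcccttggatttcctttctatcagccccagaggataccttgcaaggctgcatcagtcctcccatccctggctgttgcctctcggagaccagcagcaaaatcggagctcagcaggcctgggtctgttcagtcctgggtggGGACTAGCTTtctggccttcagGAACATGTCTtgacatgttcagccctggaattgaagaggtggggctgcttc
The decamers run from 73 to 64 and from 51 to 42 bases before that start. Only exact matches are marked, and the 10 bases directly after the second decamer miss the pattern in their first letter alone. A p53 decamer in either orientation was found in 7.13% of 32851 windows of this length, and in 5 of the 11 windows of 8 of the genes (those of Bax, Ccng1, Gadd45a and Mdm2 beside this). A pair of decamers at most 13 bases apart was found in 21 windows, 0.0639% of all, and among the 10 genes only in the Cdkn1a window printed here. Such a match is a description of the letters and not a measured binding site. The best known p53 sites of Gadd45a and Mdm2 lie in introns, outside the windows searched, and Pmaip1 and Trp53inp1 were not searched.

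Among the apoptosis genes, Pmaip1 was clearly higher, Bbc3 was slightly higher at 24 h, and Bax gave no stable ratio. Pmaip1 encodes Noxa, a BH3-only protein that neutralises the anti-apoptotic protein MCL1. Its PMCAO level was 10.97 and 10.84 at 6 h, against 9.59 and 9.39 in sham brains. The 24 h level was 10.92 and 10.85 in PMCAO brains, against 9.41 and 9.51 in sham brains. The groups did not overlap, and the gap between them was of the same size at both times. How many of all genes show no overlap was not counted, which holds for the genes below too. In log2 terms the ratio was 1.41 ± 0.09 at 6 h (SE, n = 2 arrays, adjusted p = 0.00585 in limma) and 1.43 ± 0.09 at 24 h (adjusted p = 0.000789).

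Bbc3 (probe at mm7 chr7:14080459-14080518, plus strand) encodes PUMA, a BH3-only protein that binds all the anti-apoptotic BCL2 proteins. Its PMCAO level was 11.129 and 10.998 at 6 h, against 11.020 and 11.072 in sham brains, so the groups overlapped. At 24 h the PMCAO level was 11.440 and 11.466, against 11.001 and 11.049 in sham brains, without overlap. The log2 ratio was 0.02 ± 0.09 at 6 h (SE, n = 2 arrays, adjusted p = 1.00 in limma) and 0.43 ± 0.09 at 24 h (1.35-fold, adjusted p = 0.0359). The 24 h call was lost without either of the 6 h arrays (adjusted p = 0.082 in limma), which leaves its ratio as it was and changes only the estimate of the spread.

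Bax encodes a pore-forming executioner of the mitochondrial outer membrane. Its PMCAO level was 11.12 and 11.28 at 6 h, against 11.39 and 11.19 in sham brains. Its 24 h level was 10.97 and 11.29 in PMCAO brains, against 11.26 and 10.58 in sham brains. In both channels the spread between the 2 arrays of a time was as wide as the difference between PMCAO and sham. The log2 ratios were -0.27 and 0.10 at 6 h and -0.30 and 0.72 at 24 h, and the 24 h gap of 1.01 between arrays was larger than that of 98.6% of genes. PMCAO carried Cy5 on both arrays with a negative ratio and Cy3 on both with a positive ratio. The fitted log2 ratio was -0.09 ± 0.24 at 6 h and 0.21 ± 0.24 at 24 h (SE, n = 2 arrays, adjusted p = 1.00 and 0.637 in limma). The sign at 24 h rests on which array is read, and without sample 1 of 24 h Bax was called higher (0.72, adjusted p = 2.99e-05 in limma), with the lone 24 h array assumed to vary like those of 6 h. The 10 spots of the probe differed little within an array, with SDs of 0.0214 to 0.0298, so the disagreement lies between arrays and not between spots. The probe is shown because every Bax value rests on it (mm7 chr7:41641827-41641982, minus strand, its 60 bases lying in a longer interval of the genome).
Bax probe: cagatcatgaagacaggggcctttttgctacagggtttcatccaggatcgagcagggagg

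**Figure D2:**
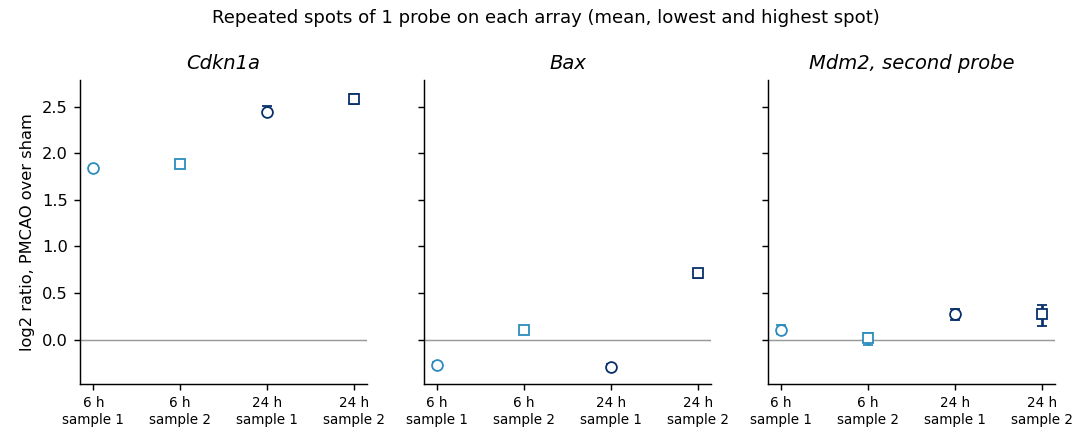
Log2 ratio of PMCAO over sham (vertical axis) for probes spotted 10 times, with the mean and the lowest and highest spot on each array. Cdkn1a spots lie between 1.82 and 1.93 at 6 h and between 2.42 and 2.64 at 24 h, and Bax spots reach from -0.33 to -0.26 on the 24 h array of sample 1 and from 0.66 to 0.75 on that of sample 2.

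Mdm2, the ubiquitin ligase that degrades p53 and is itself a p53 target, (probe at mm7 chr10:117200593-117200652, minus strand) had a log2 ratio of 0.05 on sample 1 and 0.09 on sample 2 of 6 h. At 24 h the arrays gave 0.21 and 0.34. Its PMCAO level at 24 h was 10.93 and 11.06, against 10.72 and 10.72 in sham brains, without overlap. The fitted ratio was 0.07 ± 0.08 at 6 h and 0.27 ± 0.08 at 24 h (SE, n = 2 arrays, adjusted p = 1.00 and 0.102 in limma), so neither time passed the test. A dimmer probe with 10 spots per array gave 0.06 at 6 h and 0.27 at 24 h. Both probes therefore put Mdm2 at the same small ratio.

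Ccng1 encodes cyclin G1, which recruits the phosphatase PP2A to MDM2, and its probes disagreed. The brighter probe (mm7 chr11:40691782-40691841, minus strand) gave a log2 ratio of -0.11 on sample 1 and -0.14 on sample 2 of 6 h, and 0.12 and -0.07 on those of 24 h. The dimmer probe (mm7 chr11:40693768-40693827, minus strand) gave 0.41 on sample 1 and 0.27 on sample 2 of 6 h, and 0.92 and 0.54 on those of 24 h. The dimmer probe lay above the brighter one on all 4 arrays. With every probe tested on its own over 28964 probes, a test added after the data were seen, the dimmer probe was called at 24 h (0.73, adjusted p = 0.0212 in limma) and the brighter one was not (0.03, adjusted p = 0.883). The call for Ccng1 thus depends on the probe, and why the probes differ was not tested.

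Trp53inp1 (probe at mm7 chr4:11101174-11101233, plus strand) encodes a stress protein of the nucleus that promotes p53 phosphorylation and autophagy. Its PMCAO level was 12.04 and 12.11 at 6 h, against 11.15 and 11.14 in sham brains. At 24 h it was 11.44 and 11.46 in PMCAO brains, against 10.75 and 10.83 in sham brains. Both groups were lower at 24 h, and they did not overlap at either time. The log2 ratio was 0.93 ± 0.08 at 6 h (SE, n = 2 arrays, 1.91-fold, adjusted p = 0.0150 in limma) and 0.66 ± 0.08 at 24 h (1.58-fold, adjusted p = 0.00842). Without sample 2 of 6 h the 6 h call was lost (0.89, adjusted p = 0.115 in limma). A dimmer probe gave 0.72 at 6 h and 0.34 at 24 h and passed at neither time on its own (adjusted p = 0.161 and 0.196 over 28964 probes). Bases 1 to 52 of that probe are a 26-base unit, shown here, written 2 times in a row, and only 14 of 41174 probes hold adjacent copies of 20 to 30 bases.
Trp53inp1 repeat unit: agtactaatacttaccacagcaggcg

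In the Gadd45 family, Gadd45b and Gadd45g were higher at both times and Gadd45a was called only at 24 h. Gadd45a, the DNA damage inducible member (probe at mm7 chr6:67017167-67017226, minus strand), had a PMCAO level of 11.26 and 11.37 at 6 h, against 10.78 and 10.71 in sham brains. At 24 h it had 11.42 and 11.51 in PMCAO brains, against 10.62 and 10.72 in sham brains. The groups did not overlap at either time. The log2 ratio was 0.57 ± 0.09 at 6 h (SE, n = 2 arrays, adjusted p = 0.0706 in limma) and 0.79 ± 0.09 at 24 h (1.73-fold, adjusted p = 0.00540). The 24 h minus 6 h difference was 0.22 ± 0.12 (SE, adjusted p = 0.526 in limma), so a call at 24 h alone is no sign that the times differ.

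Gadd45b (probe at mm7 chr10:80721751-80721810, plus strand), which NF-kB and TGF-beta signalling induce and which restrains the JNK kinase MKK7, had a PMCAO level of 12.74 and 12.75 at 6 h, against 11.22 and 11.15 in sham brains. At 24 h it was 13.07 and 13.00 in PMCAO brains, against 10.99 and 11.11 in sham brains. Both arrays of a time put PMCAO far above sham. The log2 ratio was 1.56 ± 0.09 at 6 h (SE, n = 2 arrays, 2.95-fold, adjusted p = 0.00554 in limma) and 1.98 ± 0.09 at 24 h (3.95-fold, adjusted p = 0.000313). A dimmer probe of Gadd45b gave 1.29 at 6 h and 1.86 at 24 h and passed at both times (adjusted p = 0.00812 and 0.000358 over 28964 probes).

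Gadd45g (probe at mm7 chr13:50882456-50882515, plus strand), a cytokine-inducible member also known from neuronal differentiation, had a PMCAO level of 15.26 and 15.54 at 6 h, against 13.95 and 13.99 in sham brains. The level at 24 h was 15.29 and 15.68 in PMCAO brains, against 13.65 and 13.72 in sham brains. The PMCAO arrays differed more from each other than the sham arrays did, yet the groups did not overlap. This gave a log2 ratio of 1.43 ± 0.12 at 6 h (SE, n = 2 arrays, 2.69-fold, adjusted p = 0.0124 in limma) and 1.79 ± 0.12 at 24 h (3.47-fold, adjusted p = 0.000954).

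The 250 bases before the start of each Gadd45 gene are shown because all 3 transcripts were called higher at 24 h (GRCm38.p6, RefSeq, read 5′ to 3′ on the gene's strand). Capitals mark ATTTGCAT, the octamer bound by POU factors, and CCAAT, the box bound by NF-Y, both searched on both strands.
Gadd45a (chr6:67037408-67037657, minus strand): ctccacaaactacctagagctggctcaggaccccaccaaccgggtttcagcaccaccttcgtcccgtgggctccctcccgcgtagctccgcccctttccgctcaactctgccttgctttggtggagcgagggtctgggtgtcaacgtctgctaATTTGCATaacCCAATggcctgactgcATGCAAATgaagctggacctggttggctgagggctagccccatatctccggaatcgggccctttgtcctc
Gadd45b (chr10:80929841-80930090, plus strand): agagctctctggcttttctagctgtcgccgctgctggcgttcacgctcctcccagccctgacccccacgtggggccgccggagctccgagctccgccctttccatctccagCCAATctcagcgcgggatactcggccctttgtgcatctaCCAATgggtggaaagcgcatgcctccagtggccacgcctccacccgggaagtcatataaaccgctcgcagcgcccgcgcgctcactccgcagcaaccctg
Gadd45g (chr13:51846425-51846674, plus strand): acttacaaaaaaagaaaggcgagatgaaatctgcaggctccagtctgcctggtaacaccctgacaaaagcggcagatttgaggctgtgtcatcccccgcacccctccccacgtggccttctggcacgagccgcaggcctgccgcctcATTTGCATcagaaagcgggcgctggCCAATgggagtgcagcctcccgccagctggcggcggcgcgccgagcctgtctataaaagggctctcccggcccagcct
All 3 windows hold CCAAT, as do 33.8% of all windows. The octamer stands in the Gadd45a window, in both orientations, and in the Gadd45g window, beside 1.6% of all windows. CACGTG, the E-box core, stands in the windows of Gadd45b, Gadd45g, Bax and Bbc3, beside 6.02% of all, and TGANTCA and TGACGTCA, the letters read by AP-1 and CREB, stand in 0 of the 11 windows searched, beside 6.75% and 1.55% of all. Neither motif's absence from these windows says anything about the factor.

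Whether the ratios differed between the times was tested as a 24 h minus 6 h difference, and 0 of the 10 genes passed in limma, against 1.3% of all genes called higher and 0.303% called lower. With the sample number, and so the dye orientation, as a block, 4 of the 10 passed (Cdkn1a, Bbc3, Gadd45b and Gadd45g). Under that block 1685 of the 19117 genes were higher and 1530 lower. Before adjustment in the fit without the block, 3 had p under 0.05 and were higher at 24 h, namely Cdkn1a, Bbc3 and Gadd45b. At that threshold 1468 of the 19117 genes were higher and 1245 lower. The difference of log2 ratios was 0.65 ± 0.12 for Cdkn1a (SE, adjusted p = 0.0781 in limma), 0.41 ± 0.12 for Bbc3 (adjusted p = 0.218) and 0.42 ± 0.13 for Gadd45b (adjusted p = 0.218). Trp53inp1 was the only gene of the 10 with a difference below 0, at -0.27 ± 0.12 (SE, adjusted p = 0.387 in limma). Without sample 1 of 24 h the difference was 0.72 for Cdkn1a, 0.80 for Bax, 0.32 for Gadd45b and 0.53 for Gadd45g. Without sample 2 of 24 h it was 0.58, -0.21, 0.51 and 0.20 in the same order. Each of these fits leaves 1 array at 24 h and takes the residual spread from the 6 h arrays alone.

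The levels at both times were then compared within each arm. In PMCAO brains, 2 of the 10 genes were higher at 24 h than at 6 h, against 11.1% of all genes, and 1 was lower, against 9.15% of all genes. Bbc3 had a log2 change of 0.39 ± 0.07 (SE, adjusted p = 0.00842 in limma's separate-channel model), Gadd45b of 0.29 ± 0.07 (adjusted p = 0.0267) and Trp53inp1 of -0.63 ± 0.07 (adjusted p = 0.000905), while Cdkn1a had -0.04 ± 0.07 (adjusted p = 0.740). The Bbc3 and Gadd45b calls were lost without either 6 h array, where 0 of the 10 genes were called higher, and that of Gadd45b also without sample 1 of 24 h.

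In sham brains, all 10 genes had a log2 change below 0 between 6 h and 24 h, with a median of -0.18 beside -0.01 over all genes, and 2 of the 10 were called lower and 0 higher, against 1.59% and 1.89% of all genes. Cdkn1a had a log2 change of -0.69 ± 0.07 in sham brains (SE, adjusted p = 0.00454 in limma's separate-channel model). Trp53inp1 changed by -0.35 ± 0.07 (SE, adjusted p = 0.0391 in the same model). The 8 tested neutrophil and monocyte markers were also all below 0 in sham brains, with a median of -0.20 and 1 called lower (S100a8, -1.15, adjusted p = 0.0382 in limma). Of 7 endothelial markers 1 was called lower, but 4 were above 0 and their median was 0.05. In the same comparison 1 of 2 red blood cell markers and 1 of 4 dividing-cell markers were called higher, and no marker of the other lists was called. The part of these cell types in the sham changes of the 10 genes was not tested. The PMCAO levels of Cdkn1a at 24 h and 6 h thus lay close together, while its sham levels at 24 h lay below both sham levels at 6 h. Without either 6 h array, 0 of the 10 genes were called lower in sham brains, with Cdkn1a still at -0.69 (adjusted p = 0.069 and 0.071 in limma), and the Trp53inp1 call was also lost without sample 1 of 24 h. Both changes between times set different arrays against each other, and the sham comparison, the PMCAO comparison and the difference of ratios share the same 4 arrays.

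**Figure D3:**
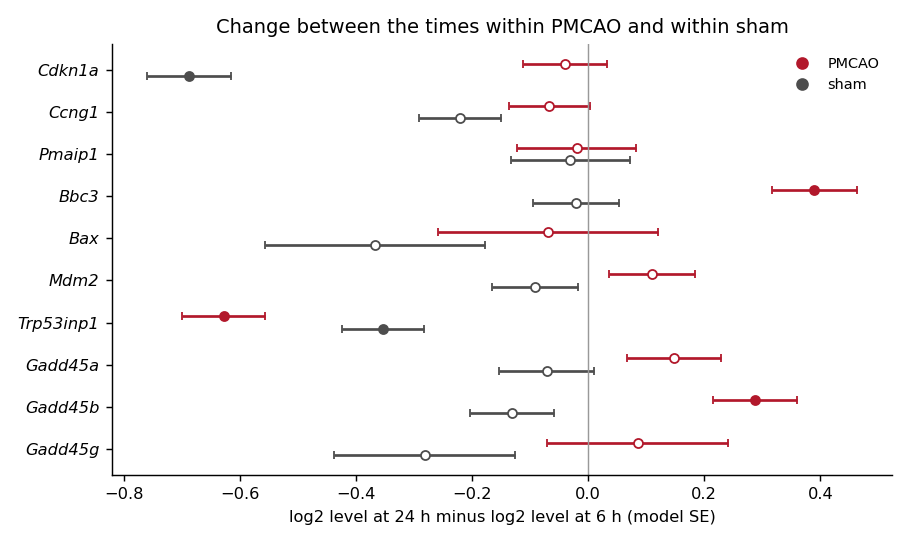
Log2 level at 24 h minus log2 level at 6 h (horizontal axis, error bars are model SE) within PMCAO brains and within sham brains for each gene; filled points have an adjusted p under 0.05. Cdkn1a lies at -0.04 in PMCAO and at -0.69 in sham brains, and Trp53inp1 is lower at 24 h in both, by -0.63 in PMCAO and -0.35 in sham brains.

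**Figure D4:**
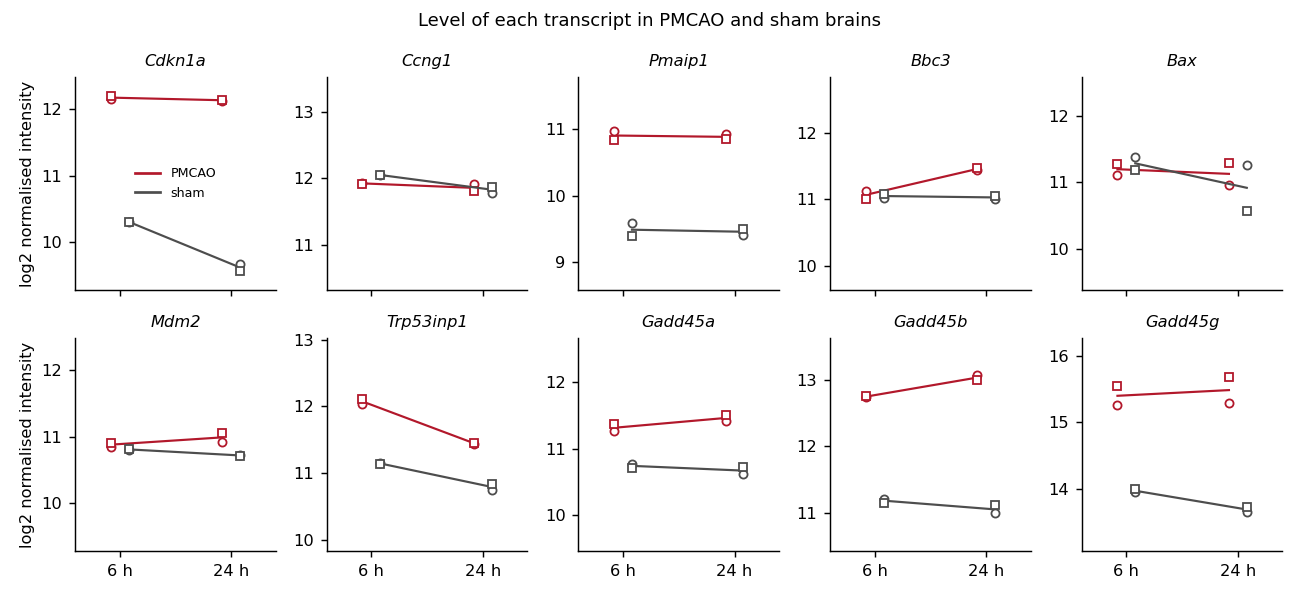
Normalised log2 intensity (vertical axis) of PMCAO and sham RNA at 6 h and 24 h for each gene, with 1 point per array (circles sample 1, squares sample 2) and lines through the means; all panels span the same range of log2 units, and levels are not comparable between genes. PMCAO lies above sham on all arrays for Cdkn1a, Pmaip1, Trp53inp1, the 3 Gadd45 genes and also Mdm2, which was called at neither time. The groups overlap for Bax at both times, for Bbc3 at 6 h and for Ccng1 at 24 h. At 6 h Ccng1 lies lower in PMCAO than in sham, without overlap. How many of all genes show no overlap was not counted.

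The other genes of the pathways were read from 5 lists. Their counts stand beside 0.816% of all genes called higher and 0.0366% lower at 6 h, and 7.86% and 4.53% at 24 h. At an unadjusted p under 0.05 in limma, 1179 of the 19117 genes were higher and 495 lower at 6 h. At 24 h these counts were 2965 and 2539. Of 40 further p53 pathway genes, 37 were tested, and 1 was higher at 6 h and 8 at 24 h, with 0 lower at either time and medians of 0.03 and 0.09. Among those higher at 24 h were the matrix protein Thbs1, also a well known target of TGF-beta signalling (log2 ratio 2.38), the death receptor Fas (1.497) and the antiproliferative gene Btg2 (0.85). Trp53, which encodes p53 and is mostly controlled at the protein level, had log2 ratios of 0.05 at 6 h and -0.06 at 24 h and passed at neither time (adjusted p = 1.00 and 0.674 in limma). Between the times, 1 gene of this list was higher and 2 were lower at 24 h in sham brains, against 1.89% and 1.59% of all genes. Trp53 was the higher one, with a log2 change of 0.34 in sham brains (adjusted p = 0.0358 in limma). In PMCAO brains 6 genes of this list were higher at 24 h and 3 lower, against 11.1% and 9.15% of all genes. Trp53 was among those higher there (0.22, adjusted p = 0.0467 in limma). Fas (-0.71, adjusted p = 0.00836 in limma) and Btg2 (-0.47, adjusted p = 0.0322) were lower in sham brains, as Cdkn1a was.

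Of 14 tested genes of the BCL2 family, 1 was higher at 6 h, against 0.816% of all genes. At 24 h 4 were higher and 1 lower, against 7.86% and 4.53% of all genes. Bcl2a1b, an anti-apoptotic member abundant in leukocytes, had log2 ratios of 0.81 at 6 h and 2.09 at 24 h. The BH3 proteins Bid (0.59) and Bnip3 (0.54) were higher at 24 h, and Bcl2, the founding anti-apoptotic member, was lower (-0.80, adjusted p = 0.00812 in limma). Among 15 tested CDK inhibitors, cyclins and partners of p21, 0 passed at 6 h, where 1 had an unadjusted p under 0.05 in limma. At 24 h Cdk6 (0.62) and Cdkn2b (0.56) were higher and Ccnd2 (-0.38) lower, 2 and 1 of 15 beside 7.86% and 4.53% of all genes. Of 12 stress kinases that work with the Gadd45 proteins, 0 passed at 6 h, with 3 at an unadjusted p under 0.05 in limma. Only the p38 activator Map2k3 was higher at 24 h (0.59, adjusted p = 0.0123 in limma), and 1 of 12 is near the 7.86% of all genes called higher. Of 8 tested kinases and mediators of DNA damage sensing, 0 passed at either time in limma, and before adjustment 0 had p under 0.05 at 6 h and 2, both lower, at 24 h.

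**Figure D5:**
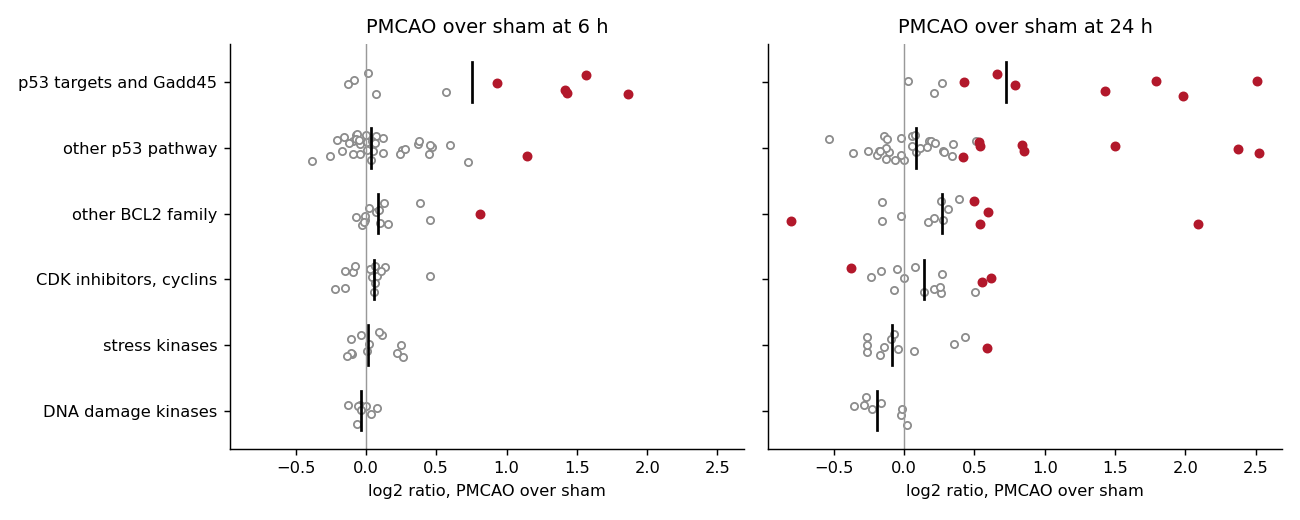
Log2 ratio of PMCAO over sham (horizontal axis) at 6 h (left) and 24 h (right) for the 10 genes and for 5 lists of related genes, with 1 point per gene, filled where the adjusted p is under 0.05, and a line at the median. The median of the 10 genes is 0.75 at 6 h and 0.72 at 24 h, beside 0.03 and 0.09 for the other p53 pathway genes.

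The genes nearest to Cdkn1a in their log2 ratios over the 4 arrays were Adamts1 (a distance of 0.347), Akap12 (0.356) and Plaur (0.387). Those nearest to Gadd45b were Gjb2 (0.326), Socs3 (0.478) and Sphk1 (0.509), and those nearest to Gadd45g were Sphk1 (0.307), Zfp36 (0.430) and Ada (0.471). The distance is Euclidean over 4 arrays on which every one of these genes was high, which limits what it can tell apart.

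Markers of blood-borne cells moved with the same comparisons. Of 8 tested neutrophil and monocyte markers, 3 were higher at 6 h and 7 at 24 h, against 0.816% and 7.86% of all genes. Their mean log2 level at 6 h was 8.49 to 8.50 in PMCAO brains, against 7.45 to 7.72 in sham brains. At 24 h it was 9.62 to 9.67 in PMCAO brains, against 7.12 to 7.29 in sham brains. In PMCAO over sham, 1 of 7 endothelial markers was lower at 6 h and 3 were higher and 1 lower at 24 h. Also at 24 h, 1 of 2 red blood cell markers was higher, 2 of 7 astrocyte markers were higher, and 2 of 7 microglia markers were lower. Over all genes, 0.0366% were called lower at 6 h and 4.53% at 24 h. Of the 8 neuron, 6 oligodendrocyte and 4 dividing-cell markers, 0 passed at either time in limma, while 1 oligodendrocyte marker and 1 dividing-cell marker had an unadjusted p under 0.05 at 24 h. The part of these cell types in the levels of the 10 genes was not tested.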

How the data were processed

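Gene expression was measured on 4 two-colour Agilent arrays on 1 slide with 1 scan, 2 per time with opposite dyes, which leaves slide and scan without a batch to test. The deposited scanner tables hold spot intensity values beside the log10 of red over green. Per the file headers, the software was Agilent Feature Extraction 9.5.3.1 and probe coordinates are of mm7. The deposited series table holds a score whose size equals the processed Cy5 over Cy3 ratio (100% of values within 0.006). Its sign has no stated meaning and its column medians are -0.96 and 0.96 at 6 h and -0.91 and 0.95 at 24 h, so it served only as an alternative.

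Background was corrected with normexp (offset 50) on the mean signals, and dyes were normalised by loess in limma 3.58.1 under R 4.3.3, with control spots at weight 0 and 112 to 142 outlier spots per array removed. Saturated spots (0 to 2 per array) were kept. Ratios were turned to PMCAO over sham, replicate spots were averaged, and each gene was read from its brightest probe. A gene entered the tests where that probe exceeded background in both arrays for at least 1 of the 4 kinds of RNA. The model had 1 coefficient per time, 2 residual and 3.54 prior degrees of freedom, and no dye term because orientation was balanced. Changes within an arm came from a separate-channel model after Aquantile (intraspot correlation -0.415). The number of arrays limits precision. Of 41174 probes, 22951 were named by accession, 6659 by symbol and 3109 by an older symbol through RefSeq (GRCm38.p6), and 8455 kept the file's name. The fits were also run on simulated arrays with known changes and independent noise, as a check of the code, and no result above rests on that run. Plots used matplotlib 3.10.9 under Python 3.11.15.

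The genes and lists were chosen with earlier results of these data known. All 10 genes are named, and from each list at most 4 genes past the test with the largest log2 ratios are named per comparison. Trp53 was named beyond that rule at 6 h, at 24 h and for its change between times in PMCAO brains. A further gene that the rule takes is not reported here. For Cdkn1a, Gadd45b and Gadd45g the 3 nearest genes are named.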

Additional observations from a re-analysis of the deposited data

How the results depend on the processing

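Median centring in place of loess ended every PMCAO over sham call of the 10 genes, with 0 of 10 higher at 6 h and 0 at 24 h (4 at each time before adjustment in limma), 0 and 13 of all genes higher, 0 and 0 lower, and 0 higher and 0 lower for the difference between times. Before adjustment, 64 of all genes were higher at 6 h and 283 at 24 h. Under median centring Cdkn1a had a ratio of 1.89 at 6 h and 2.37 at 24 h, Bbc3 of 0.28 and Mdm2 of 0.13 at 24 h. The SE was 0.55 for Cdkn1a at both times, in place of 0.08 with loess, and 0.57 for Bbc3 at 24 h, in place of 0.09. The differences between times were smaller for Gadd45a (0.0517), Gadd45b (0.21) and Gadd45g (0.0927), and the cause was not tested. With the sample number as a replicate block, which takes up the dye orientation too, 4 of the 10 genes were called for the difference (Cdkn1a, Bbc3, Gadd45b and Gadd45g), 4 were lower in sham brains, and Gadd45a at 6 h and Mdm2 at 24 h passed. Under the block, 1131 genes were higher and 571 lower at 6 h, 3912 and 3683 at 24 h, 1685 and 1530 for the difference, 1442 and 1436 in sham brains and 3584 and 3271 in PMCAO brains. Deviations of same-numbered arrays correlated at 0.718. Such arrays share a dye orientation, so a dye effect of a gene and a shared batch, which no label gives, cannot be told apart. With 2 pairs the number was not taken as a pairing in the main fit. The arrays of 6 h fitted alone gave 940 genes higher and 354 lower, with Gadd45a among those higher (adjusted p = 5.48e-06 in limma, 0.0706 with all arrays). Processed signals gave 54 higher and 8 lower for the difference and 22 lower at 6 h, the deposited series values 22 lower at 6 h, and no background subtraction 14 lower at 6 h and 36 lower for the difference; the cause was not tested. Bbc3 at 24 h missed the threshold with processed signals (0.38, adjusted p = 0.081 in limma) and the series table (0.38, adjusted p = 0.080).

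With 1 array left out, the number of the 10 genes called ranged from 0 to 3 for the difference, from 0 to 2 higher in PMCAO brains and from 0 to 2 lower in sham brains. Over all genes the ranges were 76 to 940 higher and 0 to 354 lower at 6 h, 1245 to 2917 and 613 to 2837 at 24 h, 169 to 1564 and 15 to 1350 for the difference, 32 to 760 and 68 to 692 in sham brains, and 699 to 2231 and 357 to 1889 in PMCAO brains. Without sample 1 of 24 h, Mdm2 was called at 24 h (0.34, adjusted p = 0.049 in limma) and Bax was lower in sham brains (-0.71, adjusted p = 0.0105). Such a fit leaves 1 array at a time, which is assumed to vary like the 2 arrays of the other time, and keeps 1 dye orientation there, so a dye effect no longer cancels.

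Signs turned only for values that passed no test with all arrays. With 1 array left out, Bax ranged from -0.27 to 0.10 at 6 h, -0.30 to 0.72 at 24 h, -0.21 to 0.80 for the difference and -0.233 to 0.0928 in PMCAO brains. Bbc3 ranged from -0.0745 to 0.109 at 6 h and -0.0472 to 0.00478 in sham brains, Ccng1 from -0.0692 to 0.124 at 24 h, and Gadd45g from -0.11 to 0.28 in PMCAO brains. Pmaip1 ranged from -0.0713 to 0.0935 for the difference, -0.0877 to 0.0481 in PMCAO and -0.130 to 0.0684 in sham brains. Bbc3 at 6 h was -0.0207 with processed signals and -0.0205 with the series table. Ccng1 was -0.0477 for the difference and -0.13 at 24 h with median centring, -0.00888 at 24 h with processed signals and -0.00677 with the series table, and 0.106 at 6 h and 0.00955 in PMCAO brains with the mean of its probes. The Pmaip1 difference was -0.12 with median centring, -0.0553 without background subtraction and -0.12 with processed signals, and its sham change was 0.00881 with quantile normalisation.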
